A study of Mus musculus with 16 samples.

Results

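Elastic fibre and lysyl oxidase transcripts were followed across 4 groups of mouse stomach biopsies. The set holds 9 genes of the 24964 gene symbols in the deposited count table, taken by symbol: Eln, Fbn1, Fbln5, Emilin1, Mfap4, Lox, Loxl1, Loxl2 and Loxl3. All 9 passed the filter on low counts, which left 15385 genes to test. Eln and Loxl2 were selected on their measured levels in the 2 genotypes of these same data, so their genotype differences are described without a test. The other 7 were chosen for what they encode, but with earlier results of these data known.

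Elastic fibres give distensible tissues their recoil. Soluble tropoelastin, the product of Eln, is laid onto a scaffold of fibrillin microfibrils, and lysyl oxidases then oxidise lysines in tropoelastin and collagen so that the chains become covalently crosslinked. In the wall of the stomach such fibres run in blood vessels, in the connective tissue and around muscle.

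Wild-type (WT) mice were C57BL/6, and TTPΔARE mice carried, on a congenic C57BL/6 background, a Zfp36 allele from whose transcript the AU-rich element is missing. Zfp36 encodes tristetraprolin (TTP), which binds AU-rich elements and promotes transcript decay. All mice were female and 8 weeks old, and each RNA sample was a 4 mm biopsy taken at the lesser curvature of the corpus. Groups WT-A and TTP-A had been adrenalectomised, which the labels tie to gastric inflammation. The treatment label of WT-S and TTP-S names spasmolytic polypeptide-expressing metaplasia (SPEM), and the labels do not say if these mice were operated on. The labels name no promoter or Cre for the allele. Each group had 4 libraries, and nothing in the labels says that they came from separate mice, so p-values measure the spread between these libraries.

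The 16 libraries held 17453930 to 25849472 counts. Zfp36 lay at 55.1 to 88.6 CPM (counts scaled to library size) in the 8 WT libraries and at 110.5 to 131 CPM in the 8 TTPΔARE libraries. The corpus genes Atp4a and Pgc were abundant in every group (lowest 9835 and 46389 CPM), while gastrin, the hormone of the antrum, had at most 7 counts in a library. In WT-A 3 and WT-A 4, a gene's deviation from its median rose with the GC content of its transcript (Spearman rho across 11493 genes 0.72 and 0.74, against at most 0.30 in size in the other libraries). Genes are not independent replicates, so these rho values are descriptions. The pair belongs to 1 group, so no comparison can be made within it, and values for the other 14 libraries, or for WT-A 1 and WT-A 2, stand beside the comparisons that use WT-A. These are bulk biopsies, so fewer cells of a type and less RNA per cell cannot be told apart.

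TTP reads AU-rich letters in 3′ untranslated regions, so stretches of member transcripts that carry such letters are shown first. The core heptamer TATTTAT was searched on the sense strand of the 3′ untranslated region of the longest coding transcript (GENCODE M21, GRCm38), and ATTTA, which lies inside it, was searched likewise. TATTTAT occurred in 2 of the 9 members, Lox and Loxl2, and in 29.5% of the 14437 tested genes with such a region. ATTTA occurred in 6 of 9 members and in 68.8% of those genes. Lox held the most, 10 in 3160 bases, followed by Fbln5 with 7 in 4177 and Loxl2 with 3 in 2715 bases, and these sites of Lox and Fbln5 are not printed. The longer TTATTTATT occurred in none of the 9 and in 7.81% of the genes. The lines show the heptamer of Loxl2 and the ATTTA of Eln, Fbn1 and Mfap4, with the motif in capitals and its position counted from the first base after the stop codon.
Loxl2, position 2024 of 2715: ttcattttgcaTATTTATatacaattata
Eln, position 1104 of 1188: atgaaacacacATTTAaaaaaaaatca
Fbn1, position 431 of 959: tctcaaaatagATTTAttgatgcactg
Fbn1, position 611 of 959: atcattgaaacATTTAtaaactacaat
Mfap4, position 723 of 899: tgtggacagacATTTActtggctccaa
A match of letters is a description and not a binding site. Loxl1, Loxl3 and Emilin1 held no ATTTA in this region.

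Measured per kilobase of the longest coding transcript, the scale on which genes can be compared, Mfap4 and Eln led the set. Over the 16 libraries Mfap4 was at 34.1 ± 9.31 CPM per kb and Eln at 27.6 ± 7.92 CPM per kb (SD). These 2 exchanged first and second place between libraries. Emilin1 (14.2 ± 2.24), Loxl1 (10.1 ± 2.27), Loxl2 (7.36 ± 0.90) and Fbn1 (5.86 ± 0.87 CPM per kb) held places 3 to 6 in that order in every library. Lox (2.7 ± 0.77) and Fbln5 (2.51 ± 0.45 CPM per kb) exchanged places, and Loxl3 was lowest in each library at 1.52 ± 0.21 CPM per kb. With the length of all annotated exons in place of the coding transcript the order of the means was the same. Genes on the opposite strand overlap 2442 of the 12128 exon bases of Fbn1 (Gm9913) and 535 of the 4603 of Loxl3 (Htra2), and reads of such a pair cannot be told apart without strand.

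**Figure D1:**
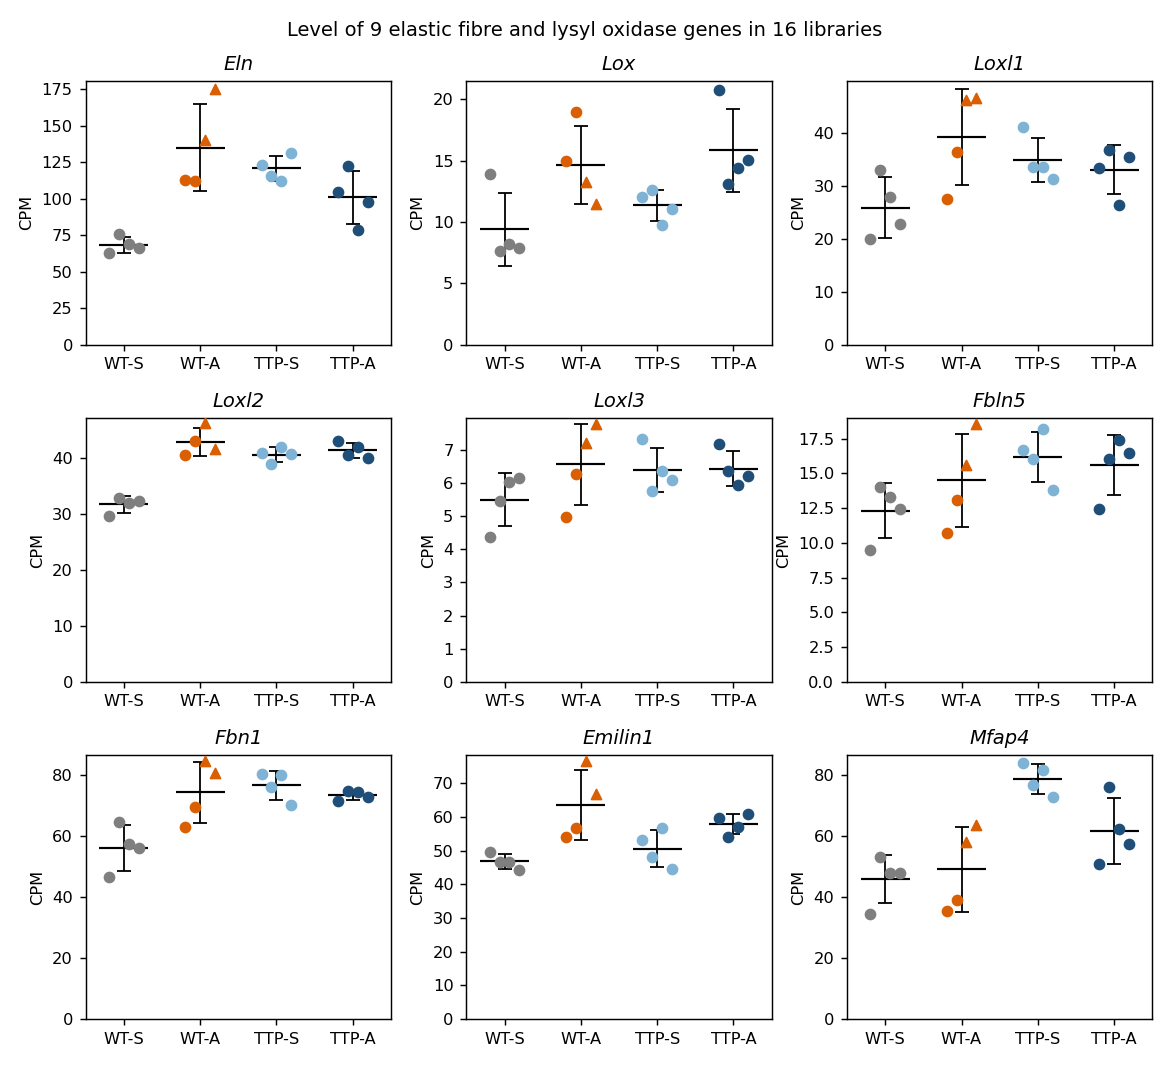
CPM of each gene (vertical axis, from 0) in the 4 libraries of each group, in order of replicate number, with the mean (line) and SD (bar); triangles are WT-A 3 and WT-A 4. Eln in WT-S lies between 62.5 and 75.8 CPM, below the other 12 libraries, and Loxl2 in WT-S likewise lies between 29.6 and 32.9 CPM.

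Elastin was lowest in WT-S. Eln (chr5:134702593-134747323, minus strand, GRCm38) was at 62.5, 75.8, 68.8 and 66.2 CPM in WT-S and at 113, 112, 140.0 and 175 CPM in WT-A. It was at 123, 116, 112 and 132 CPM in TTP-S and at 105, 123, 78.6 and 97.9 CPM in TTP-A. All 4 WT-S libraries therefore lay below all 12 others, while the ranges of neighbouring groups overlapped in the descending order WT-A, TTP-S, TTP-A. Between WT-A and WT-S the log2 difference was 0.98 (SE 0.14, edgeR adjusted p = 0.00115), and it was 0.72 (SE 0.12, adjusted p = 0.00456) in the 14 libraries. Eln was picked on its levels in both genotypes, which include the libraries of this test, so the test is not independent of the choice. In TTPΔARE mice the difference of A from S was -0.26 (SE 0.14, adjusted p = 0.401), and TTP-A and TTP-S overlapped. That test has the same tie to the choice of the gene. As a description, TTP-S lay 0.82 (SE 0.14) above WT-S. TTP-A lay 0.42 (log2 -0.42, SE 0.14) below WT-A, a gap that came to -0.16 (SE 0.12) in the 14 libraries.

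Loxl2 was also lowest in WT-S, with less spread between libraries. Loxl2 (chr14:69609068-69695834, plus strand, GRCm38) encodes a lysyl oxidase with scavenger receptor domains. It was at 29.6, 32.9, 31.9 and 32.3 CPM in WT-S and at 40.5, 43.1, 46.3 and 41.7 CPM in WT-A. In TTP-S it was at 40.8, 38.8, 42.0 and 40.7 CPM, and in TTP-A at 43.1, 40.6, 41.9 and 40.1 CPM. WT-S again stood below the other 12 libraries, which overlapped with one another. WT-A exceeded WT-S by a log2 of 0.44 (SE 0.054, adjusted p = 0.000603; 14 libraries 0.40, adjusted p = 0.0017), with the same tie to the choice of the gene as for Eln. TTP-A differed from TTP-S by 0.029 (SE 0.054, adjusted p = 0.887), again with that tie. As a description, TTP-S lay 0.36 (SE 0.055) above WT-S, and TTP-A lay 0.051 below WT-A (log2 -0.051, SE 0.054; 14 libraries -0.014).

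In WT mice, 6 of the 9 genes were called higher in WT-A than in WT-S, that is, passed an adjusted p of 0.05 over all genes tested, and none was called lower. Of all genes tested, 9.8% were called higher. Without the 2 picked genes, 4 of 7 were called (Lox, Loxl1, Fbn1 and Emilin1). The median log2 difference of the 7 was 0.40, against 0.0094 over all genes, and that of the 7 was 0.23 in the 14 libraries. These 7 were chosen with earlier results of these data known, so the count is not independent of the data. In the 14 libraries Lox was the 1 of these 7 that was called, beside the picked Eln and Loxl2, where 4.64% of all genes were called higher. In a fit of only WT-A and WT-S none of the 7 was called (adjusted p of 0.0522 for Emilin1, 0.0791 for Fbn1, 0.102 for Loxl1 and 0.119 for Lox), where 2.65% of all genes were called higher, and the picked Eln and Loxl2 were.

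The scaffold genes Fbn1 and Emilin1 were both higher in WT-A. Fbn1 encodes fibrillin-1, the backbone of microfibrils. It was at 46.5, 64.8, 57.4 and 56.0 CPM in WT-S and at 62.9, 69.4, 84.6 and 80.7 CPM in WT-A, where the lowest WT-A library lay within the range of WT-S. The log2 difference was 0.40 (SE 0.097, adjusted p = 0.0127; 14 libraries 0.23, adjusted p = 0.127). Emilin1 encodes a glycoprotein found at the boundary of elastin and microfibrils. Its levels were 49.5, 46.7, 46.5 and 44.2 CPM in WT-S and 54.0, 56.8, 76.7 and 66.7 CPM in WT-A. These groups did not overlap, and the difference was 0.44 (SE 0.099, adjusted p = 0.0088; 14 libraries 0.24, adjusted p = 0.0681). Emilin1 was the 1 of the 7 unpicked genes whose groups did not overlap, a share near the 9.2% of all genes with WT-A higher without overlap.

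Fbln5 and Mfap4 were not called. Fbln5 encodes fibulin-5, which tethers tropoelastin to microfibrils. It ranged from 9.52 to 14.04 CPM in WT-S and from 10.7 to 18.5 CPM in WT-A (log2 0.23, SE 0.16, adjusted p = 0.311; 14 libraries -0.053, adjusted p = 0.87). Mfap4, a microfibril-associated glycoprotein that binds elastin and collagen, was at 34.5, 53.1, 47.9 and 47.8 CPM in WT-S and at 35.3, 39.0, 57.8 and 63.6 CPM in WT-A. The 2 higher WT-A values are those of WT-A 3 and WT-A 4, and the difference of 0.092 (SE 0.18, adjusted p = 0.732) was -0.30 (adjusted p = 0.227) in the 14 libraries.

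Among the other crosslinking enzymes, Lox and Loxl1 were called and Loxl3 was not. Lox encodes the founding lysyl oxidase. It was at 13.9, 7.63, 8.19 and 7.83 CPM in WT-S and at 15.0, 18.9, 13.2 and 11.4 CPM in WT-A, with WT-S 1 inside the range of WT-A. The difference was 0.65 (SE 0.20, adjusted p = 0.0345; 14 libraries 0.86, adjusted p = 0.0244). It remained called in 3 of the 8 fits that left out 1 of the 8 libraries, and the highest adjusted p was 0.106, without WT-S 2. Without WT-S 1, which lay apart from the other WT-S libraries, it was 0.89 (adjusted p = 0.00444). Loxl1, the family member that binds fibulin-5 and is needed to maintain elastic fibres, was at 19.9, 33.0, 27.9 and 22.7 CPM in WT-S and 27.5, 36.5, 46.3 and 46.7 CPM in WT-A. These groups overlapped, and the difference of 0.60 (SE 0.17, adjusted p = 0.0283) was 0.30 (adjusted p = 0.304) in the 14 libraries. Loxl1 remained called in 4 of the 8 fits with 1 library left out (highest adjusted p = 0.0917, without WT-A 3). Loxl3 ranged from 4.37 to 6.14 CPM in WT-S and from 4.98 to 7.78 CPM in WT-A (0.25, SE 0.14, adjusted p = 0.208; 14 libraries 0.030, adjusted p = 0.925).

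**Figure D2:**
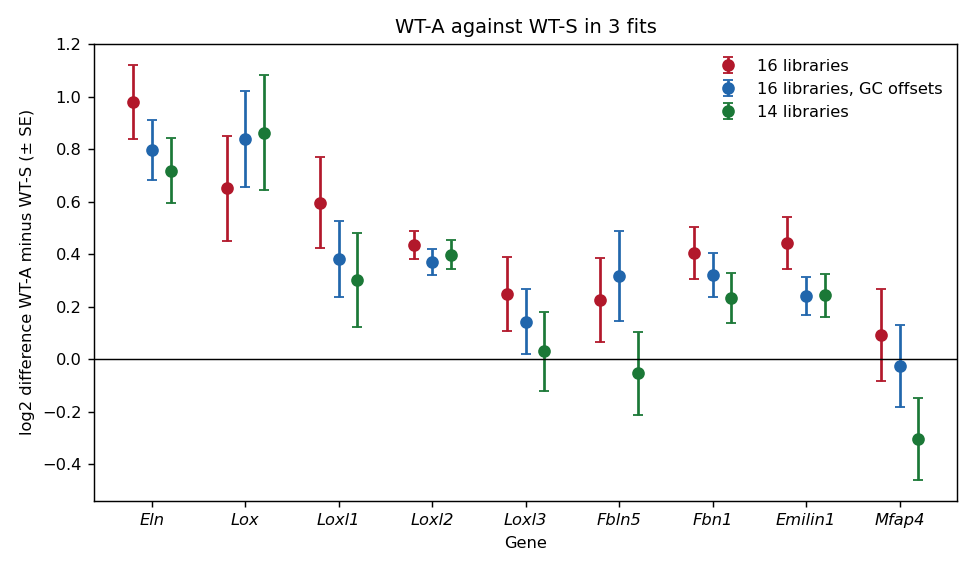
Log2 difference of WT-A from WT-S (vertical axis) with its SE (bars) for each gene, in 16 libraries, in 16 libraries with offsets for GC content, and in the 14 libraries without WT-A 3 and WT-A 4. Eln goes from 0.98 to 0.80 and 0.72 and Loxl2 from 0.44 to 0.37 and 0.40, while Mfap4 goes from 0.092 to -0.026 and -0.30.

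In TTPΔARE mice none of the 9 genes was called between TTP-A and TTP-S, where 2.9% of all genes were called in either direction by edgeR. The 9 include Eln and Loxl2, which were picked on levels that include these libraries, and the count for the other 7 was also 0. Lox had the lowest unadjusted p of the 9 by edgeR (0.0279), and DESeq2 called none of the 9. The 14 libraries, which hold all 8 of this comparison, also gave 0 of 9, where 6.26% of all genes were called. Lox was at 12.0, 12.6, 9.73 and 11.1 CPM in TTP-S and at 20.8, 13.1, 14.4 and 15.0 CPM in TTP-A. All TTP-A libraries were above all TTP-S libraries, as in 6.94% of all genes. The Lox difference of 0.48 (SE 0.20, adjusted p = 0.233) had the same sign as that in WT mice. Mfap4 was at 83.9, 76.6, 81.4 and 72.8 CPM in TTP-S and at 50.8, 76.0, 62.1 and 57.4 CPM in TTP-A (log2 -0.35, SE 0.17, adjusted p = 0.344), and the groups overlapped through TTP-A 2. Fbn1 was within 71.4 to 74.7 CPM in TTP-A and 70.1 to 80.3 CPM in TTP-S (-0.062, SE 0.097, adjusted p = 0.857). Loxl1, Loxl3, Fbln5 and Emilin1 differed by -0.081, 0.0078, -0.055 and 0.19, with adjusted p of 0.902, 0.991, 0.934 and 0.37.

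Between the genotypes in condition S, the log2 difference (TTPΔARE minus WT) was positive for the 7 unpicked genes, with a median of 0.39 against -0.00052 over all genes. None of the 7 genes that can be tested was called by edgeR, where 0.0325% of all genes were called. Of these 7, the lowest unadjusted p by edgeR were those of Fbn1 (0.000315), Mfap4 (0.000436), Loxl1 (0.0259) and Fbln5 (0.0267). Loxl1 differed by 0.43 (SE 0.17) and Fbln5 by 0.39 (SE 0.16). Mfap4 was at 34.5 to 53.1 CPM in WT-S and at 72.8 to 83.9 CPM in TTP-S, a log2 difference of 0.78 (SE 0.18, adjusted p = 0.153). Fbn1 differed by 0.45 (SE 0.098, adjusted p = 0.127), at 46.5 to 64.8 against 70.1 to 80.3 CPM. These were the 2 of the 7 whose ranges were apart, while 3.5% of all genes had TTP-S above WT-S without overlap. In the 14 libraries, which hold all 8 of this comparison, Mfap4 (adjusted p = 0.0175) and Fbn1 (adjusted p = 0.0244) were called, where 0.365% of all genes were. DESeq2 also called these 2 (adjusted p = 0.00551 and 0.00688). Neither was called in any of the 8 fits with 1 library left out (highest adjusted p = 0.409 for Mfap4, without WT-S 1, and 0.36 for Fbn1, without TTP-S 2). In a fit of only these groups Mfap4 was called (adjusted p = 0.0241) and Fbn1 was not (0.0624), and with GC offsets Fbn1 was called (0.046) and Mfap4 was not (0.0554). The share of all genes called by DESeq2 and in these fits is not given here, so those calls stand without a background. How many of all genes the alternatives called is given as a range further below. This comparison and that of WT-A share the 4 WT-S libraries, so a low level in WT-S enters both.

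Between the genotypes in condition A, none of the 7 testable genes was called by edgeR or DESeq2, where edgeR called 5.17% of all genes. The lowest unadjusted p of the 7 by edgeR was 0.0751 (Mfap4). The ranges of TTP-A and WT-A overlapped for each of the 9 genes, while 5.99% of all genes had TTP-A higher and 6.22% had it lower without overlap. Mfap4 had the largest difference of the 7 in 16 libraries (0.33, SE 0.17, adjusted p = 0.228). In the 14 libraries it was called, with 0.73 (SE 0.16, adjusted p = 0.0329), where 1.87% of all genes were. WT-A 1 and WT-A 2 were at 35.3 and 39.0 CPM, below all TTP-A libraries (50.8 to 76.0 CPM).

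**Figure D3:**
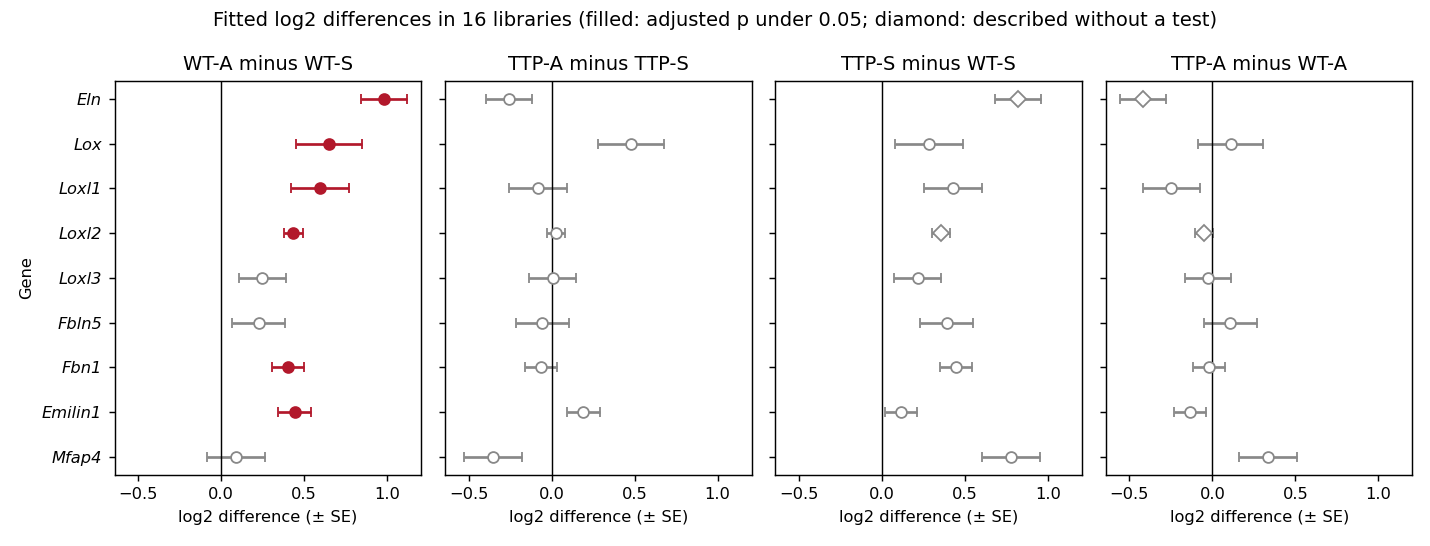
Fitted log2 differences (horizontal axis) with SE for the 9 genes in 4 comparisons of 16 libraries; filled points passed an adjusted p of 0.05, and diamonds mark Eln and Loxl2 where no test is given. Filled points appear for 6 genes in WT-A minus WT-S and in no other panel, which does not show that the comparisons differ.

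Whether the response to adrenalectomy differed between genotypes was read from the interaction, the difference in TTPΔARE mice minus that in WT mice. For the 7 testable genes the values ran from -0.68 (Loxl1, SE 0.25, adjusted p = 0.236) to -0.17 (Lox, SE 0.28, adjusted p = 0.781). Fbn1 was at -0.47 (SE 0.14, adjusted p = 0.167). Without WT-A 3 and WT-A 4 the size grew for Lox and shrank for the other 6. Loxl1 was then at -0.38, Lox at -0.38 and Fbn1 at -0.30 (adjusted p = 0.51, 0.613 and 0.319). Emilin1, Mfap4, Loxl3 and Fbln5, at -0.25, -0.44, -0.24 and -0.28 in 16 libraries, came to -0.052, -0.050, -0.022 and -0.0020. None was called, where 0.0585% of all genes were, nor was any in the 14 libraries (0.295%). Fbn1 and Loxl1 had the lowest unadjusted p of the 7 by edgeR (0.00378 and 0.014), and DESeq2 called none of the 7. Without WT-A 1 the value of Fbn1 was -0.54 with an adjusted p of 0.04999, and it was called. As descriptions, Eln was at -1.24 (SE 0.20; 14 libraries -0.98) and Loxl2 at -0.41 (SE 0.077; 14 libraries -0.37).

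Loxl1 and Loxl2 made up most of the lysyl oxidase transcripts in each group. With Loxl4, another family member from the wider list, the shares of the family's summed CPM per kb in WT-S were 41.4% ± 5.33 for Loxl1, 31.9% ± 2.28 for Loxl2 and 10.8% ± 4.24 for Lox (SD, n = 4). Loxl4 took 8.74% ± 0.83 and Loxl3 7.18% ± 1.14. In WT-A, TTP-S and TTP-A Loxl1 took 44.0% ± 5.53, 44.2% ± 1.90 and 40.4% ± 3.98, and Loxl2 took 30.3% ± 2.83, 32.1% ± 2.39 and 31.6% ± 2.39. Lox took 11.8% ± 3.31, 10.1% ± 1.17 and 13.5% ± 2.40 in the same groups. In WT-A 1 and WT-A 2 alone, Loxl1 took 37.5% and 41.6%, Loxl2 34.2% and 30.4%, and Lox 14.2% and 15.01%. No test was made on these shares.

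**Figure D4:**
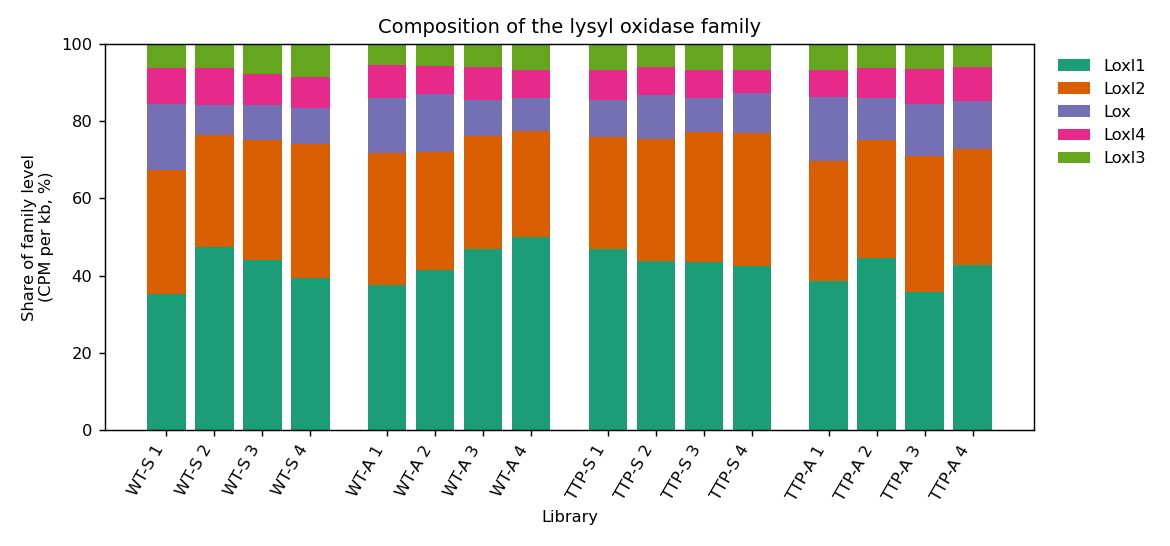
Share of each lysyl oxidase in the summed CPM per kb of the 5 family members (vertical axis, %), 1 bar per library. Loxl1 and Loxl2 are the 2 largest shares in every bar, and Lox ranges from 7.6% to 17.01% in WT-S, the highest being WT-S 1.

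Members were also compared with one another within groups. Deviations of log2 CPM from the group mean were correlated over the 16 libraries, which share depth and biopsy makeup within a library. All 28 pairs without Lox had a positive Pearson r, and all 8 pairs with Lox had a negative r. Without WT-A 3 and WT-A 4 this held for 25 of the 28 and for 7 of the 8. With 100000 permutations of libraries within groups (two-sided), 9 of the 36 pairs had an adjusted p under 0.05 (Benjamini-Hochberg over the 36 pairs). Pairs of other genes were not counted, so these counts of signs and of passing pairs are not shown to be particular to the members. Fbn1 and Mfap4 had an r of 0.87 (permutation p = 8e-05, adjusted p = 0.00288) and a rho of 0.91 (permutation p = 2e-05, adjusted p = 0.00072). Their r was 0.81 in the 14 libraries and 0.78 without the 2 libraries farthest from the median of Fbn1. Lox and Mfap4 had an r of -0.81 (permutation p = 0.00209, adjusted p = 0.015) and a rho of -0.80 (permutation p = 0.0025, adjusted p = 0.0199). Of the 8 pairs with Lox, those with Mfap4 and with Fbln5 (r = -0.77, adjusted p = 0.0376) passed. Lox and Emilin1 had an r of -0.11 (adjusted p = 0.75), which was 0.29 in the 14 libraries. The r of Lox and Mfap4 was -0.80 in the 14 libraries and -0.74 without the 2 libraries farthest from the median of Lox. Eln and Loxl2, the pair with the same low group, had an r of 0.12 within groups (permutation p = 0.753, adjusted p = 0.753) and a rho of 0.22 (permutation p = 0.492, adjusted p = 0.506).

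**Figure D5:**
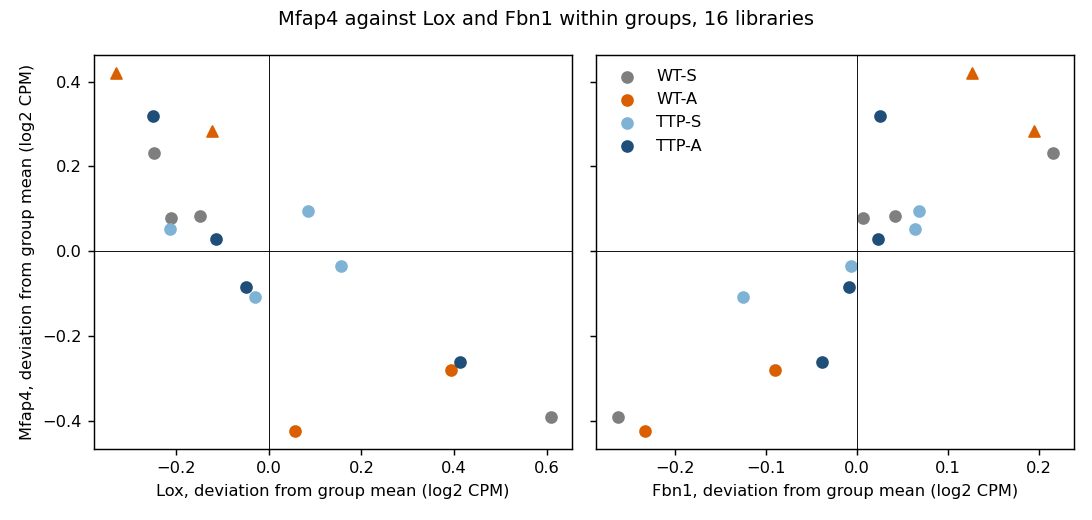
Deviation of Mfap4 from its group mean (vertical axis, log2 CPM) against that of Lox (left) and Fbn1 (right) in 16 libraries; triangles are WT-A 3 and WT-A 4. Mfap4 falls as Lox rises (r = -0.81) and rises with Fbn1 (r = 0.87).

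Likeness to Eln and Loxl2 was measured across the 16 libraries. Among 13349 genes with a mean of at least 1 CPM, those with the highest Pearson r of log2 CPM with Eln were Col4a2 (r = 0.88, rho = 0.76), Col4a1 (0.88, rho 0.75), Capn2 (0.87, rho 0.77), Bmp1 (0.86, rho 0.83) and Col5a3 (0.85, rho 0.76). Col4a1 and Col4a2 encode basement membrane collagen, and Capn2 a calcium-dependent protease. Their r with Eln was 0.80 to 0.86 in the 14 libraries. For Loxl2 they were Pxdn (r = 0.91, rho = 0.83), Col3a1 (0.89, rho 0.77), Sparc (0.89, rho 0.83), Col1a1 (0.87, rho 0.81) and C1qtnf6 (0.86, rho 0.77). Pxdn encodes peroxidasin, which crosslinks basement membrane collagen, and Sparc a collagen-binding matrix protein. Their r with Loxl2 was 0.84 to 0.92 in the 14 libraries. These values are descriptions, since the genes were chosen for them. Col4a1, the second for Eln, averaged 295 ± 12.1 CPM in WT-S and, in the other groups, 426 ± 67.2 CPM (WT-A), 361 ± 16.9 CPM (TTP-S) and 369 ± 19.0 CPM (TTP-A). Pxdn was at 30.6 ± 2.85, 44.1 ± 6.25, 40.7 ± 3.48 and 41.1 ± 3.84 CPM in the same groups.

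Beyond the 9 genes, 36 other genes of elastic fibre assembly, microfibrils, crosslinking and elastin breakdown were examined, of which 34 could be tested (Emilin3 and Elane had at most 5 and 1 counts in a library). Between WT-A and WT-S, 11 were called higher and 2 lower, where 9.8% and 8.99% of all genes were. The counts were 6 and 2 in the 14 libraries, where 4.64% and 5.75% of all genes were called. The 5 with the smallest adjusted p were all higher in WT-A. Tgfb1, a growth factor that induces matrix genes, differed by 0.71 (SE 0.13, adjusted p = 0.0037). Fkbp10, a chaperone of collagen and tropoelastin, differed by 0.62 (SE 0.12, adjusted p = 0.00406). Bmp1, the protease that activates pro-lysyl oxidase, went from 29.8 ± 2.14 to 40.9 ± 6.51 CPM (0.45, SE 0.09, adjusted p = 0.00471; 14 libraries 0.25; only the 2 groups fitted, adjusted p = 0.053). Fn1, encoding fibronectin, differed by 0.66 (SE 0.13, adjusted p = 0.00537). Efemp2, encoding fibulin-4, which brings lysyl oxidase to tropoelastin, differed by 0.42 (SE 0.096, adjusted p = 0.00936; 14 libraries 0.27, adjusted p = 0.0886). The other 4 were also called in the 14 libraries, with adjusted p of 0.0288 to 0.0346.

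In TTPΔARE mice 2 of the 34 were called higher in TTP-A than in TTP-S and 1 lower, where 1.55% and 1.35% of all genes were, and in the 14 libraries 6 and 1, where 3.17% and 3.1% were. Adamtsl2, a secreted protein that binds microfibril components, had a mean of 6.80 ± 1.35 CPM in TTP-S and fell to 1.29 ± 0.16 CPM in TTP-A (log2 -2.39, SE 0.32, adjusted p = 0.00144). In WT mice Adamtsl2 was at 2.48 ± 1.25 CPM in S and 1.30 ± 0.60 CPM in A (log2 -0.94, SE 0.32, adjusted p = 0.0527), and it was called in the 14 libraries (-1.31, adjusted p = 0.0364) and with GC offsets (adjusted p = 0.0334). With only these groups fitted it was not (adjusted p = 0.171), and with 1 library left out it was called in 2 of 8 fits, with values from -1.31 to -0.52 (highest adjusted p = 0.232, without WT-S 2). The interaction of Adamtsl2 was not called (-1.45, SE 0.45, adjusted p = 0.182). Efemp1, encoding fibulin-3, went from 30.3 ± 1.5 to 46.8 ± 5.63 CPM (log2 0.63, SE 0.11, adjusted p = 0.0116; 0.0511 when TTP-A 1 was left out). Tgfb1 differed by 0.54 (SE 0.13, adjusted p = 0.0427) and remained called in 2 of the 8 fits with 1 library left out (highest adjusted p = 0.155, without TTP-A 1). In condition S none of the 34 was called, where 0.0325% of all genes were, and Adamtsl2 alone was called in the 14 libraries (1.45, adjusted p = 0.0299). In condition A, 2 were called higher in TTP-A and none lower, where 2.87% and 2.3% of all genes were. They were Efemp1 (0.61, SE 0.11, adjusted p = 0.0126; 0.0511 when TTP-A 3 was left out) and Timp3, an inhibitor of matrix proteases (0.40, SE 0.08, adjusted p = 0.0178; 0.25 and 0.0701 in the 14 libraries). With only these groups fitted, the adjusted p was 0.0932 for Efemp1 and 0.11 for Timp3. In the 14 libraries Efemp1 was at 0.58 (adjusted p = 0.035). The interaction of Efemp1 was 0.66 (SE 0.16, adjusted p = 0.121; 14 libraries 0.63, adjusted p = 0.136).

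Markers of other cells that a biopsy holds also differed between groups. The summed level of 10 smooth muscle genes ran from 7219 to 8169 CPM in WT-S and from 8438 to 10228 CPM in WT-A (9586 and 8438 CPM in WT-A 1 and WT-A 2), and in TTPΔARE mice from 6301 to 8797 CPM (S) and from 6838 to 8186 CPM (A). WT-A did not overlap WT-S, and 5 of 10 were called higher in WT-A, where 9.8% of all genes were. In the 14 libraries 1 of 10 was, near the 4.64% of all genes. In TTP-A against WT-A 4 of 10 were called lower, where 2.3% of all genes were, and 0 in the 14 libraries.

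The sum of 10 fibroblast genes ran from 2646 to 2760 CPM in WT-S and from 2710 to 4051 CPM in WT-A (2710 and 3211 CPM in WT-A 1 and WT-A 2), and in TTPΔARE mice from 2926 to 3455 CPM (S) and from 3177 to 3470 CPM (A). WT-S lay below both TTPΔARE groups. Of the 10, 4 were called higher in WT-A than in WT-S, all of them collagen genes, where 9.8% of all genes were, and 3 in the 14 libraries, where 4.64% were. In all, 7 of the 10 had a positive difference, and the median of the list was 0.16, or 0.037 in the 14 libraries. In TTP-S against WT-S none was called in the 16 libraries, where 0.0325% of all genes were, and 3 were called higher in the 14, where 0.365% were called.

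Other lists were compared between WT-A and WT-S in the same way. The sum of 8 corpus epithelial genes ran from 122485 to 198807 CPM in WT-S and from 82976 to 151015 CPM in WT-A (91213 and 82976 CPM in WT-A 1 and WT-A 2). Of these, 2 were called lower, where 8.99% of all genes were, and 5 of 8 in the 14 libraries, where 5.75% were. The sum of 9 squamous forestomach genes ran from 1.65 to 244 CPM in WT-S and from 51.1 to 1025 CPM in WT-A, and 2 of 9 were called higher, where 9.8% of all genes were (3 in the 14 libraries, where 4.64% were). Against the same shares of all genes, 3 of 7 endothelial, 2 of 5 mesothelial and 2 of 6 macrophage genes were called higher in 16 libraries, and 0, 1 and 1 in the 14, where 1 endothelial gene was called lower. None of 6 pericyte or 6 adipocyte genes was called between WT-A and WT-S. The adipocyte sum ran from 258 to 288 CPM in WT-S, from 248 to 348 CPM in WT-A, from 314 to 417 CPM in TTP-S and from 233 to 289 CPM in TTP-A. TTP-S lay above WT-S and TTP-A and overlapped WT-A through WT-A 3 and WT-A 4 (345 and 348 CPM). Of the 6, none was called between TTP-S and WT-S (1 higher in the 14 libraries, where 0.365% of all genes were called), and between TTP-A and TTP-S 1 was called lower, where 1.35% of all genes were (3 in the 14 libraries, where 3.1% were). No marker of these lists was at 0 in all libraries of a group. The part of other cells in the levels of the elastic fibre genes was not tested.

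As a description, Eln was also set against marker sums. Per 1000 CPM of the fibroblast sum, Eln ranged from 23.6 to 27.5 CPM in WT-S, from 34.6 to 45.0 CPM in WT-A, and in TTPΔARE mice from 34.4 to 45.0 CPM (S) and from 24.6 to 38.6 CPM (A). TTP-A thus overlapped WT-S on this scale. Per 1000 CPM of the smooth muscle sum Eln ranged from 7.65 to 10.5 CPM in WT-S, against 11.8 to 17.9 CPM in WT-A, 12.8 to 18.7 CPM in TTP-S and 11.5 to 15.7 CPM in TTP-A, all above WT-S. Loxl2 per 1000 CPM of the fibroblast sum was at 11.2 to 12.1 CPM in WT-S and at 10.7 to 15.0 CPM in WT-A. It was at 11.8 to 13.9 CPM in TTP-S and 11.5 to 13.1 CPM in TTP-A, and each group overlapped WT-S. WT-A did so only through WT-A 3 and WT-A 4, whose fibroblast sums were the highest (4051 and 3892 CPM). WT-A 1 and WT-A 2 lay above WT-S on this scale. Per 1000 CPM of the smooth muscle sum, Loxl2 was at 3.62 to 4.56 CPM in WT-S and 4.23 to 5.11 CPM in WT-A. These overlapped through WT-A 1, WT-A 3 and WT-A 4. TTP-S (4.77 to 6.16 CPM) and TTP-A (4.89 to 6.12 CPM) were both above WT-S. Mfap4 on the fibroblast scale was at 13.0 to 19.3 CPM in WT-S, against 24.3 to 24.9 CPM in TTP-S, and at 12.2 to 16.3 CPM in WT-A and 14.7 to 23.9 CPM in TTP-A, which both overlapped WT-S. On the smooth muscle scale it was at 4.22 to 7.36 CPM in WT-S, against 9.25 to 12.2 CPM in TTP-S, and at 3.69 to 6.49 CPM in WT-A and 6.34 to 9.73 CPM in TTP-A, which again overlapped WT-S.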

How the data were processed

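RNA of 16 mouse stomach libraries in 4 groups of 4 was read from 1 deposited table of whole-number counts per gene symbol, which the authors made from sequencing reads. Per the submitters' processing notes the tools included STAR 2.7.0f, featureCounts of Subread 1.6.4 and DESeq2, with the genome build mm10. The annotation and the strandedness are not given in the sources used here, so reads of overlapping or antisense genes cannot be told apart. No column was left without a sample (0). Counts were tested with edgeR 4.0.16 (R 4.3.3) after filterByExpr, with TMM scaling, in a quasi-likelihood model with 1 mean per group. Adjusted p-values of differences are Benjamini-Hochberg values over the genes tested in each fit. These were 15385 in the fit reported, 15597 in the 14 libraries and 15040 in the fit of only WT-A and WT-S. Those of correlations between members are over the 36 pairs. The SE is that implied by the test statistic. CPM is relative to the TMM-scaled library total, and correlations used log2 CPM with a prior count of 2. Members and lists were chosen with earlier results of these data known. Named genes were the 9 members, the 5 called genes of the wider list with the smallest adjusted p in a comparison, and the 5 genes with the highest r with Eln and with Loxl2. Lengths, GC content, overlapping exons and 3′ untranslated regions come from GENCODE M21 on GRCm38, the build that mm10 names. In each of the 24 replicate pairs the counts differed by more than sampling noise (chi-square over its degrees of freedom 4.69 or more), so each library was used separately. Alternatives were DESeq2 1.42.0 (size factors, and its Wald test), no filter on low counts, the replicate number as a block, a fit restricted to the groups of a comparison, the 14 libraries, GC offsets (loess, span 0.5; 98.9% of tested genes had a value), and each library left out. The procedure was tested on simulated data.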

Additional observations from a re-analysis of the deposited data

Results flagged for a closer look

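One result lay apart from its group. Lox in WT-S 1 was at 13.9 CPM, while the other 3 WT-S libraries lay at 7.63 to 8.19 CPM, and its gap to the nearest of them was 0.912 of the range of the group, above Dixon's critical value for 4 samples. Chance puts about 1 in 20 groups past this value, and 36 groups were examined. WT-S 1 also had the lowest WT-S levels of Eln (62.5 CPM), Fbn1 (46.5 CPM), Mfap4 (34.5 CPM), Loxl2 (29.6 CPM), Loxl1 (19.9 CPM), Fbln5 (9.52 CPM) and Loxl3 (4.37 CPM). Emilin1, like Lox, was highest there (49.5 CPM, against 44.2 to 46.7 CPM in the other WT-S libraries). The sum of corpus epithelial genes in WT-S 1 was 122485 CPM, against 173999 to 198807 CPM in the other WT-S libraries. The total of 17453930 counts in WT-S 1 was the smallest of all.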

How the results depend on the processing

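Of 634 refits of single gene differences that have a test, 579 kept their sign and their side of the threshold. The other 104 refits are of the Eln and Loxl2 descriptions, and 100 of them moved by less than the SE of the log2 difference in the fit reported. In WT-A against WT-S, 6 of 9 genes were called. The count was 2 in a fit of only these groups, 3 in the 14 libraries and 4 to 7 with 1 library left out. These counts include Eln and Loxl2, which were picked on these values. Of the other 7 genes, 4 were called, 0 in the fit of only these groups and 1 in the 14 libraries. For the 7 genes tested between genotypes in condition S the count of 0 became 2 by DESeq2, 1 in a fit of only the groups compared, 2 in the 14 libraries and 1 with GC offsets. In condition A the count of 0 became 1 in the 14 libraries, and the interaction had 0 to 1 with 1 library left out. Signs turned for small differences that were never called. In WT-A against WT-S they did so for Fbln5 (-0.053 in 14 libraries) and Mfap4 (-0.30 in 14 libraries, -0.026 with GC offsets, -0.059 to 0.22 with 1 library left out). In TTP-A against TTP-S this held for Loxl3 (-0.0024 with GC offsets, -0.050 to 0.081 with 1 left out), Fbln5 (-0.12 to 0.039) and Loxl1 (-0.14 to 0.011). In TTP-A against WT-A the 14 libraries gave Lox -0.099, Loxl1 0.044, Loxl3 0.19, Fbn1 0.15 and Emilin1 0.062. GC offsets gave Lox -0.059, Loxl3 0.060, Fbn1 0.050, Emilin1 0.011 and, for Loxl2, 0.0037. With 1 library left out the ranges there were -0.048 to 0.26 for Lox, -0.14 to 0.064 for Loxl3, -0.013 to 0.25 for Fbln5 and -0.092 to 0.049 for Fbn1. The cause was not tested. Over all genes the counts called ranged over all alternatives from 675 to 4977 in WT (2891 in the fit reported), 60 to 1195 in TTPΔARE mice (446), 1 to 92 in condition S (5), 1 to 3202 in condition A (796) and 2 to 260 for the interaction (9).

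The replicate numbers do not pair the libraries: of 24 same-numbered pairs 7 had a correlation of deviations over 0.1 (-0.51 to 0.33), and 4 correlated best with their own number. With the replicate number as a block 6 of 9 genes were called in WT-A against WT-S and 0 in each other comparison, and over all genes 2853, 427, 5, 624 and 4 were called.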
